A study of Chlorocebus sabaeus with 32 samples.

Results

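Levels of 6 genes that serve ketone body use and monocarboxylate transport were followed in the hippocampus of young vervet monkeys. The genes were taken by name from a table of 33994 gene rows, and all 6 were found and passed the filter on low counts. They were BDH1, OXCT1 and ACAT1, the mitochondrial enzymes of ketone body breakdown, and SLC16A1, SLC16A3 and SLC16A7, which encode the monocarboxylate carriers MCT1, MCT4 and MCT2. They were chosen by name as 1 pathway, with no threshold on a measured value, though earlier results of these data were known.

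Ketone bodies are made from fatty acids in the liver and reach the brain through the blood. Monocarboxylate carriers move them, together with lactate and pyruvate, across the endothelium of brain vessels and into glia and neurons. In mitochondria, BDH1 oxidises beta-hydroxybutyrate to acetoacetate, OXCT1 activates acetoacetate with coenzyme A taken from succinyl-CoA, and ACAT1 splits the product into acetyl-CoA for the citric acid cycle. The suckling rat brain is known to burn ketone bodies from fat-rich milk, and to carry more MCT1 in its vessels than the adult brain.

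The study sequenced hippocampal RNA of 32 Chlorocebus sabaeus, and its labels give each animal an age of under 1 yr and no treatment, sex or genotype. Total RNA was stripped of ribosomal RNA and made into stranded libraries. The titles open with year-like digits, and libraries are grouped here by that prefix into P2010 (16 libraries), P2011 (2) and P2009 (14). What the prefix stands for is not stated, and replicate numbers only follow the order of deposition. With no treated group, the 6 genes were described over all libraries, against DCX, and between P2010 and P2009. DCX encodes doublecortin, a microtubule protein of immature and migrating neurons. As labels name no litters or batches, p-values measure only the spread between these libraries.

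The libraries held 9347635 to 19673621 reads in genes each (median 16201657). Levels are in CPM, the share of a library's gene reads that fell in a gene after TMM scaling of depth, and they are not divided by transcript length, so they compare libraries and not genes. PROX1 and ZBTB20, transcription factors of hippocampal granule and pyramidal neurons, had medians of 115.9 and 329.1 CPM over the 32 libraries. Both were lowest in P2010 replicate 2, at 20.15 and 110.5 CPM, and second lowest in P2009 replicate 1, at 39.1 and 157 CPM. P2010 replicate 8 held 404 CPM of TTR, a choroid plexus transcript, against at most 33.9 CPM in any other library. TTR fell below the filter, and its values were scaled by library totals alone. P2009 replicate 1 was also the shallowest library and had the highest share of reads outside genes, 67.1%. Results are therefore also given without these 3 libraries where that changed them, an alternative chosen after seeing the data.

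SLC16A1 was the most variable of the 6 genes. MCT1 is the main monocarboxylate carrier of brain endothelium and is also made by glia. Its level was 30.8 CPM at the lowest, 40.1 at the median and 123 at the highest in the 16 libraries of P2010. The 2 libraries of P2011 had 40.0 and 104.5 CPM. In the 14 libraries of P2009 it was 15.98, 23.3 and 53.1 CPM. Every library of P2010 lay above the median of P2009, and 10 of 14 libraries of P2009 lay below the lowest of P2010. The ranges still overlapped, because only 2 libraries of P2010 exceeded the highest of P2009. High levels sat in few animals: P2010 replicate 15, P2011 replicate 2 and P2010 replicate 14, the last at 75.1 CPM, stood above all others.

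SLC16A7 encodes MCT2, a carrier of high affinity that neurons use for lactate and ketone bodies. It had 21.9, 28.6 and 34.5 CPM at the lowest, median and highest in P2010, 26.2 and 29.8 CPM in the libraries of P2011, and 22.2, 32.5 and 39.7 CPM in P2009. Here 14 of 16 libraries of P2010 lay below the median of P2009, and 6 of 14 libraries of P2009 lay above the highest of P2010. Within a library, the CPM of SLC16A1 divided by that of SLC16A7 ran from 0.913 over a median of 1.46 to 4.97 in P2010, was 1.34 and 3.997 in P2011, and ran from 0.403 over 0.713 to 1.78 in P2009. As transcript lengths were not used, this ratio compares animals and does not say which carrier is more abundant.

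SLC16A3 encodes MCT4, a carrier of low affinity that exports lactate from glycolytic cells such as astrocytes. It had the fewest counts of the 6, from 46 reads upward in a library. Its level was 3.85, 5.64 and 8.01 CPM in P2010, 4.58 and 7.93 CPM in P2011, and 3.55, 5.33 and 8.26 CPM in P2009. The prefixes covered nearly the same range, with the single highest value in P2009 replicate 1.

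Of the enzymes, BDH1 had 7.69, 11.02 and 16.1 CPM in P2010, 11.8 and 14.2 CPM in P2011, and 8.30, 10.4 and 12.2 CPM in P2009. P2010 held both the lowest library and the 6 libraries above the highest of P2009. OXCT1, the enzyme that commits acetoacetate to use and that liver lacks, had 110.5, 142 and 160 CPM in P2010, 143 and 171 CPM in P2011, and 100.5, 139 and 164 CPM in P2009. Its ranges overlapped almost fully. ACAT1 had 55.3, 70.0 and 81.2 CPM in P2010, 71.4 and 77.4 CPM in P2011, and 45.2, 60.7 and 67.2 CPM in P2009. For ACAT1, 11 of 16 libraries of P2010 exceeded the highest of P2009.

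**Figure D1:**
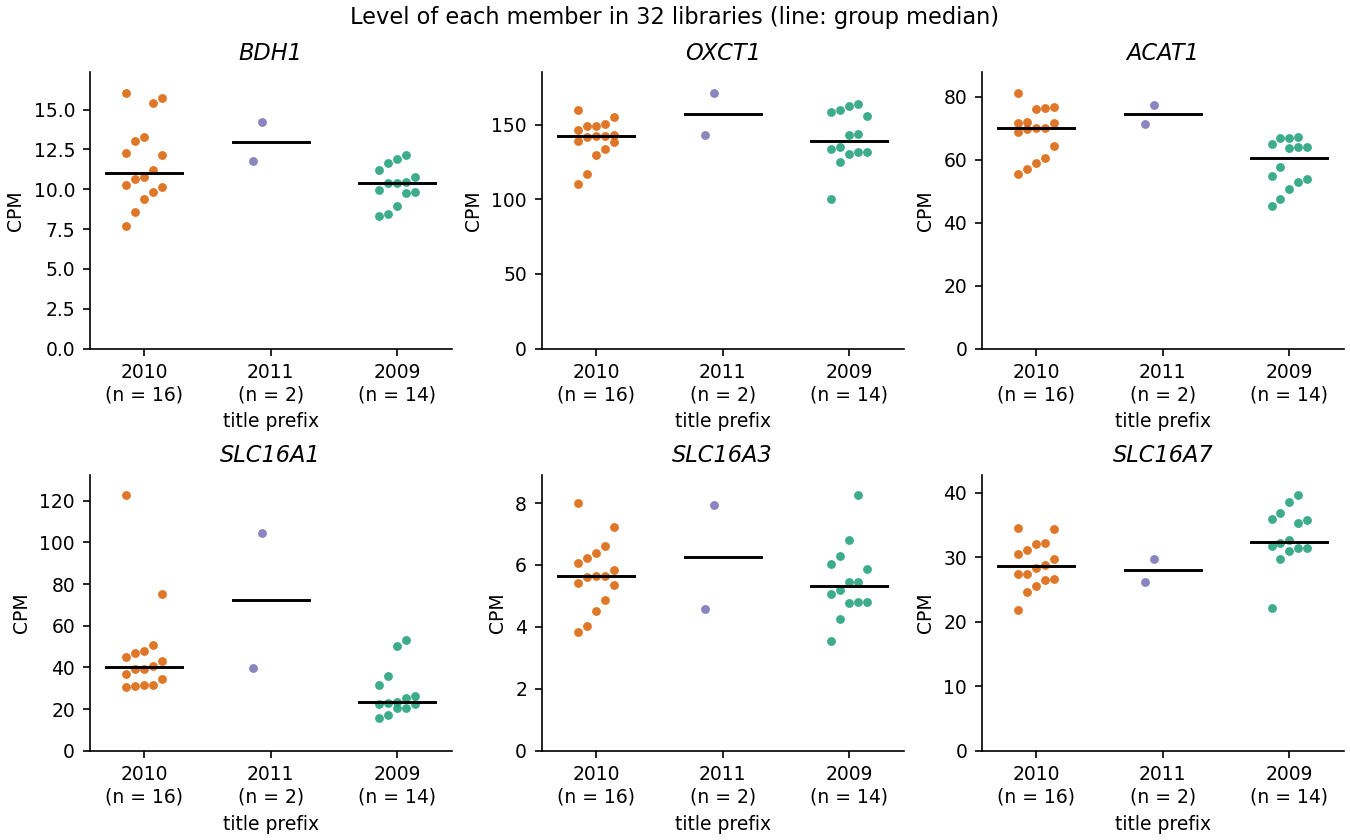
Level of each gene in CPM (vertical axis, from 0) in each of 32 libraries, by title prefix on the horizontal axis, with points for libraries and a line at the group median. SLC16A1 shows 2 points above 100 CPM and a lower cloud in P2009, while OXCT1 and SLC16A3 cover like ranges in P2010 and P2009.

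The spread of each gene was expressed as the biological coefficient of variation, the relative SD between libraries beyond counting noise, and set beside all 19959 genes tested. SLC16A1 reached 0.457, above 97.8% of genes, and DCX 0.326, above 91.9%. The other 5 genes lay in the body of the distribution, whose median was 0.157. SLC16A3 had 0.180, BDH1 0.172, ACAT1 0.144, SLC16A7 0.139 and OXCT1 0.117. OXCT1, at the 25.4th percentile, was the steadiest of the 6 between animals.

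Levels of SLC16A1 were higher in animals with more DCX, those of BDH1 and ACAT1 rose with DCX to a smaller extent, and no such slope was called for OXCT1, SLC16A3 or SLC16A7. DCX had 44.8, 66.7 and 114 CPM in P2010, 83.9 and 99.9 CPM in P2011, and 36.9, 43.3 and 65.8 CPM in P2009, a 3.08-fold range over all libraries. Slopes are log2 changes per SD of log2 DCX, which was 0.49, and edgeR's quasi-likelihood test gave their p-values, adjusted after Benjamini and Hochberg over 19958 genes. In bulk tissue, fewer cells of a type and less RNA per cell cannot be told apart.

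SLC16A1 rose by 0.56 ± 0.07 (SE, n = 32) per SD of DCX, or 1.47-fold with a 95% interval of 1.33 to 1.63, at an edgeR adjusted p of 4.09e-07. BDH1 rose by 0.15 ± 0.04 (edgeR adjusted p = 0.00521) and ACAT1 by 0.09 ± 0.03 (edgeR adjusted p = 0.0357). Thus 3 of 6 genes were called higher and 0 of 6 lower, where 13.1% of all genes were called higher and 13.1% lower. OXCT1 had a slope of 0.02 ± 0.03 with a 95% interval of -0.04 to 0.08, which spans 0.973-fold to 1.06-fold per SD. SLC16A3 had 0.09 ± 0.05 (edgeR adjusted p = 0.181) and SLC16A7 -0.07 ± 0.03 (edgeR adjusted p = 0.116). The median slope of the 6 genes was 0.09, against -0.00012 for all genes.

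The call on ACAT1 was lost without any 1 of 8 libraries, namely P2010 replicates 12, 14 and 15, P2011 replicate 2, and P2009 replicates 1, 3, 4 and 9, with slopes of 0.08 to 0.09 and edgeR adjusted p-values of 0.0546 to 0.0923. Without P2009 replicate 1, SLC16A7 was called lower, at -0.09 ± 0.03 (edgeR adjusted p = 0.0296). Without the 3 libraries that stood apart, SLC16A7 fell by 0.10 per SD (-0.096 ± 0.028, edgeR adjusted p = 0.00871), while ACAT1 at 0.08 ± 0.03 was not called (edgeR adjusted p = 0.0521). SLC16A1 then rose by 0.59 ± 0.07 per SD.

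**Figure D2:**
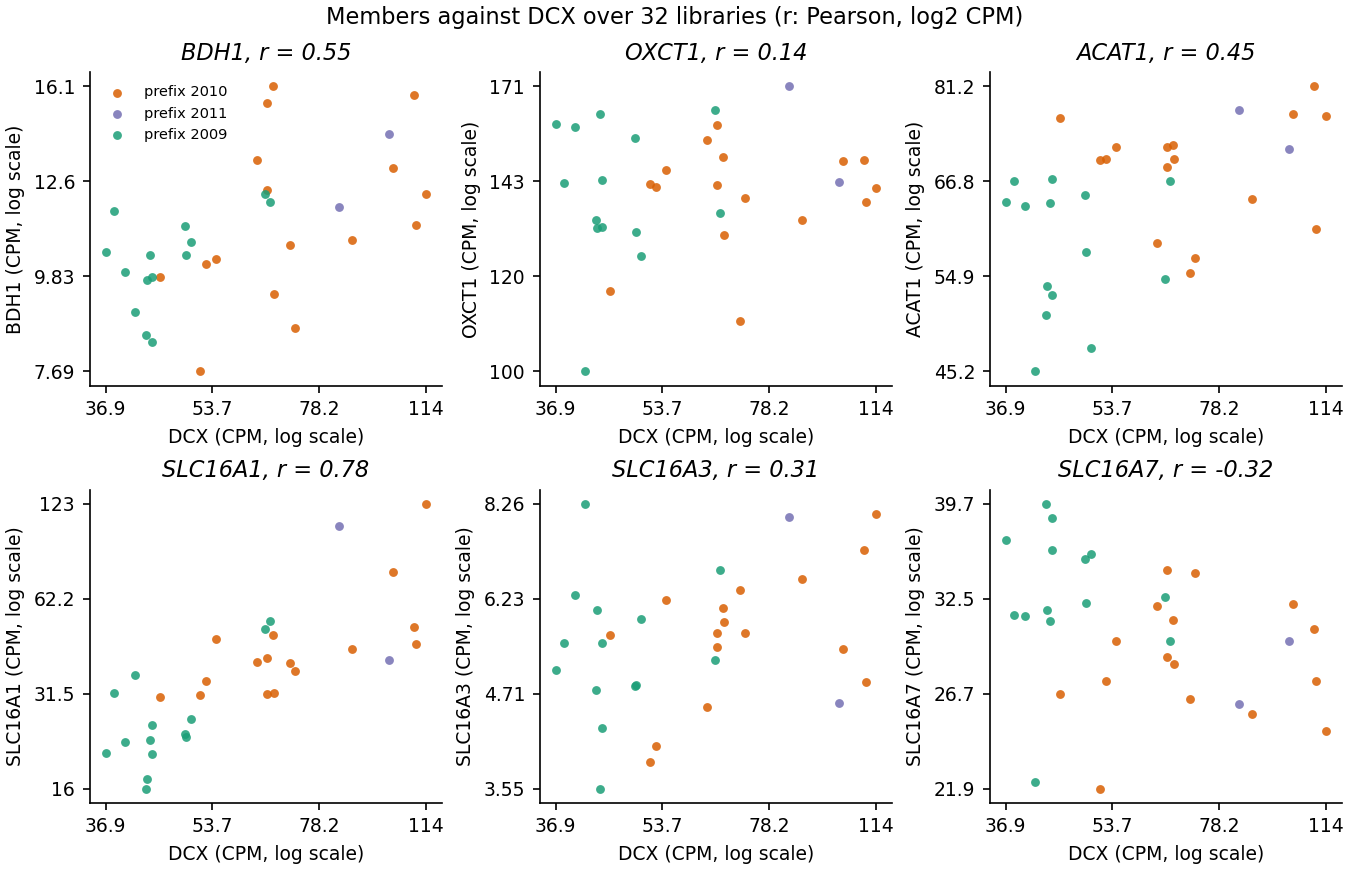
Level of each gene against DCX, both in CPM on log axes, with 1 point per library coloured by title prefix. SLC16A1 climbs with DCX (r = 0.78 over 32 libraries), BDH1 and ACAT1 climb less steeply (r = 0.55 and 0.45), and OXCT1 lies flat (r = 0.14).

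Correlations of log2 CPM with DCX were computed for the same 19958 genes, with two-sided permutation tests and adjustment over all of them. SLC16A1 had a Pearson r of 0.78 and a Spearman rho of 0.80 (permutation p = 1e-05 each, the smallest the permutations can give, adjusted p = 0.00023 and 0.000275). BDH1 had r = 0.55 and rho = 0.54 (permutation p = 0.00114 and 0.00161, adjusted p = 0.00798 and 0.0108). ACAT1 had r = 0.45 and rho = 0.48 (permutation p = 0.00968 and 0.00609, adjusted p = 0.0407 and 0.0292). Thus 3 of 6 genes passed by r, all positive, where 13.1% of all genes passed with a positive and 12.5% with a negative r. Scaled by library totals alone, 18.7% of genes passed as positive and 9.39% as negative, against 13.1% and 12.5% after TMM scaling. The same 3 members passed on either scale.

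Without P2010 replicates 11 and 15, the libraries farthest from the median of DCX, r was 0.76 for SLC16A1, 0.59 for BDH1 and 0.46 for ACAT1, and all 3 still passed, where 10.9% of genes did with a positive and 10.5% with a negative r. For the others, r was 0.31 for SLC16A3 (permutation p = 0.0875, adjusted p = 0.204), 0.14 for OXCT1 (0.439 and 0.612) and -0.32 for SLC16A7 (0.0719 and 0.178). Their rho was 0.28 for SLC16A3, 0.03 for OXCT1 and -0.41 for SLC16A7, with adjusted permutation p-values of 0.248, 0.941 and 0.0726.

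Within title prefixes, SLC16A1 alone kept its call. With the prefix as a factor in the fit, SLC16A1 rose by 0.51 ± 0.10 per SD of DCX (edgeR adjusted p = 0.00133). BDH1 kept a like slope with a wider error, 0.15 ± 0.06 (edgeR adjusted p = 0.116). ACAT1 had a slope of 0.01 ± 0.04 with a 95% interval of -0.08 to 0.10. The count was thus 1 of 6 higher and 0 lower, where 3.77% of all genes were called higher and 4.12% lower. SLC16A3 had 0.13 ± 0.07, OXCT1 0.02 ± 0.04 and SLC16A7 0.01 ± 0.05, and none was called.

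In the 16 libraries of P2010, SLC16A1 rose by 0.48 ± 0.10 per SD (edgeR adjusted p = 0.00446), the 1 of 6 members called, where 2.49% of genes were higher and 3.09% lower. In the 14 libraries of P2009 its slope was 0.67 ± 0.18 (edgeR adjusted p = 0.0947), and no member was called, where 0.225% of genes were higher and 0.0902% lower. DCX spans less in P2009, and the slopes differed by -0.19 ± 0.21, P2010 minus P2009 (edgeR adjusted p = 1), with a 95% interval of -0.62 to 0.25. No slope of the 6 genes was called different between the prefixes, and of 19958 genes 1 was, or 0.00501%: RAB7B, a small GTPase, named after its value was seen. Pearson's r of SLC16A1 with DCX was 0.72 within P2010 (permutation p = 0.00048, adjusted p = 0.0249) and 0.69 within P2009 (permutation p = 0.009, adjusted p = 0.33), where 1.93% of genes passed with a positive and 2.33% with a negative r in P2010 and none in P2009. Spearman's rho was 0.69 within P2010 (permutation p = 0.00422, adjusted p = 0.0874) and 0.45 within P2009 (permutation p = 0.111, adjusted p = 0.804). For ACAT1, r was 0.07 within P2010 and -0.02 within P2009. Its slope was 0.02 ± 0.05 within P2010 (95% interval -0.09 to 0.12) and -0.01 ± 0.09 within P2009 (95% interval -0.21 to 0.18). It was called within neither, and both intervals contain the slope of 0.09 over all libraries. For BDH1, r was 0.42 and 0.54 in those prefixes, with adjusted permutation p-values of 0.381 and 0.575.

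**Figure D3:**
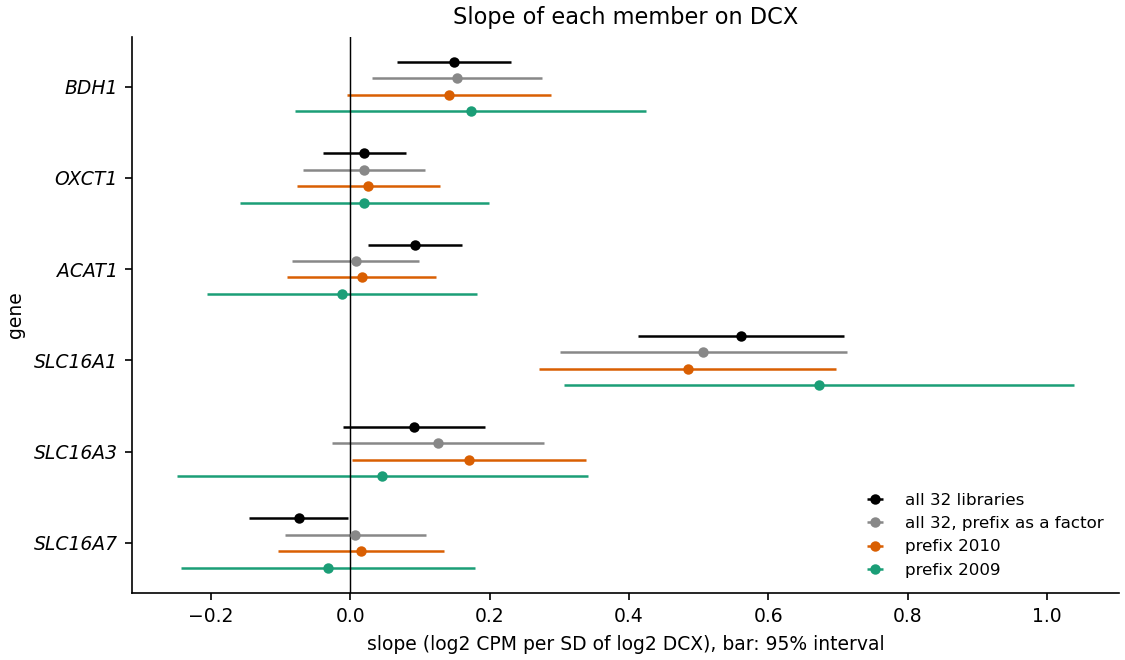
Slope of each gene on DCX (horizontal axis, log2 CPM per SD of log2 DCX) over all libraries, with prefix as a factor, and within P2010 and P2009, with points at estimates and bars for 95% intervals. SLC16A1 lies right of 0 in all 4, from 0.48 to 0.67, and ACAT1 moves from 0.09 over all libraries to 0.01 once prefix is in the fit.

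Between title prefixes, SLC16A1 and ACAT1 were higher and SLC16A7 was lower in P2010 than in P2009. SLC16A1 averaged 46.7 ± 23.04 CPM in P2010 (SD, n = 16) and 27.7 ± 11.4 CPM in P2009 (SD, n = 14), a fitted log2 difference of 0.76 ± 0.20 or 1.69-fold (edgeR adjusted p = 0.0110). ACAT1 averaged 68.8 ± 7.61 CPM in P2010 and 58.6 ± 7.71 CPM in P2009, a difference of 0.23 ± 0.06 or 1.17-fold (edgeR adjusted p = 0.0129). SLC16A7 averaged 28.9 ± 3.50 CPM in P2010 and 33.2 ± 4.38 CPM in P2009, a difference of -0.20 ± 0.07 or 0.869-fold (edgeR adjusted p = 0.0379). Of 6 genes, 2 were therefore higher and 1 lower, where 7.88% of 19959 genes were higher and 6.68% lower.

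BDH1 averaged 11.7 ± 2.51 CPM in P2010 and 10.3 ± 1.21 CPM in P2009, a difference of 0.18 ± 0.09 (edgeR adjusted p = 0.184). OXCT1 averaged 140.4 ± 12.9 CPM in P2010 and 141 ± 17.9 CPM in P2009, and its difference of -0.01 ± 0.06 had a 95% interval of -0.13 to 0.11. SLC16A3 averaged 5.70 ± 1.09 CPM in P2010 and 5.47 ± 1.16 CPM in P2009, a difference of 0.07 ± 0.11 (edgeR adjusted p = 0.728).

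DCX itself was higher in P2010, by 0.69 ± 0.12 (edgeR adjusted p = 0.000638). With DCX as a covariate the difference between the prefixes was 0.07 ± 0.20 for SLC16A1, 0.22 ± 0.09 for ACAT1 and -0.21 ± 0.09 for SLC16A7, and none was called (edgeR adjusted p = 0.928, 0.343 and 0.405). In that fit edgeR called 0 of all genes, while 2203 had an unadjusted p under 0.05. Titles also carry a second number, whose meaning is not stated, below 20000 in 7 of 16 libraries of P2010 and in all 14 of P2009. Among those 21 libraries the difference was 0.56 ± 0.19 for SLC16A1, 0.13 ± 0.09 for ACAT1 and -0.23 ± 0.09 for SLC16A7, again with none called (edgeR adjusted p = 0.0832, 0.420 and 0.140), while 1161 of all genes were. ACAT1 averaged 72.6 ± 3.04 CPM in the 9 libraries of P2010 with higher numbers and 63.9 ± 9.07 CPM in the 7 with lower ones. The call on SLC16A7 was lost without any 1 of 12 libraries, namely P2010 replicates 1, 2, 6, 8, 11 and 15 and P2009 replicates 2, 3, 4, 6, 7 and 10, with differences of -0.20 to -0.18 and edgeR adjusted p-values of 0.0502 to 0.0740. It was also lost with no count filter (-0.20 ± 0.07, edgeR adjusted p = 0.0701).

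Over the 15 pairs of members, 6 correlations of log2 CPM passed by Pearson's r, with p-values adjusted over all 19958 genes set against the same member. Of these, 5 were positive and the pair of SLC16A1 and SLC16A7 was negative. Each pair was adjusted against the member named first in the order BDH1, OXCT1, ACAT1, SLC16A1, SLC16A3 and SLC16A7, and a pass can depend on this choice. SLC16A1 correlated with ACAT1 at r = 0.52 and rho = 0.55 (permutation p = 0.00188 and 0.00128, adjusted p = 0.0109 and 0.00905), where 16.3% of genes passed with a positive r against ACAT1. It correlated with BDH1 at r = 0.52 and rho = 0.66 (permutation p = 0.0026 and 0.00011, adjusted p = 0.0231 and 0.00417), where 9.73% of genes passed with a positive r against BDH1. Without the 2 libraries farthest from the median of ACAT1 or of BDH1, r was 0.59 with ACAT1 and 0.50 with BDH1, both still passing. OXCT1 with BDH1 passed by rho alone, at r = 0.42 and rho = 0.49 (adjusted permutation p = 0.068 and 0.0345). ACAT1 with SLC16A7 had r = -0.26 (adjusted permutation p = 0.272). Without the 2 libraries farthest in ACAT1 that pair had r = -0.48 and passed (adjusted permutation p = 0.0397).

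The carriers SLC16A1 and SLC16A7 had r = -0.51 and rho = -0.51 (permutation p = 0.00266 and 0.00324, adjusted p = 0.0162 and 0.0177), where 12.4% of genes passed with a negative and 12.6% with a positive r against SLC16A1. Without the 2 libraries farthest in SLC16A1, r was -0.41 and no longer passed (adjusted permutation p = 0.104). It was -0.05 within P2010 and -0.51 within P2009, with adjusted permutation p-values of 0.960 and 0.551. SLC16A1 and SLC16A3 had r = 0.51 and rho = 0.45 (permutation p = 0.00271 and 0.0114, adjusted p = 0.0165 and 0.0442), and r was 0.31 without those 2 libraries (adjusted permutation p = 0.267). This pair was adjusted against SLC16A1. Against SLC16A3 only 0.752% of genes passed with a positive r, and the pair adjusted that way is not reported here. ACAT1 paired with BDH1 at r = 0.48 and rho = 0.46 (permutation p = 0.00453 and 0.00847, adjusted p = 0.0321 and 0.0457), and r was 0.40 without the 2 libraries farthest in BDH1 (adjusted permutation p = 0.126).

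Among the enzymes, OXCT1 and ACAT1 had r = 0.49 and rho = 0.39 (permutation p = 0.00477 and 0.0290, adjusted p = 0.0225 and 0.103), where 16.6% of genes passed with a positive r against OXCT1. Without the 2 libraries farthest in OXCT1, r was 0.28 (adjusted permutation p = 0.427). Within P2010 r was 0.31 and within P2009 it was 0.71, with adjusted permutation p-values of 0.518 and 0.0321. P2009 replicate 1 held the lowest level of both genes in the series. No other of these pairs passed within a prefix. Within P2010, r was 0.35 for SLC16A1 with ACAT1, 0.41 for SLC16A1 with BDH1, 0.57 for SLC16A1 with SLC16A3 and 0.33 for ACAT1 with BDH1. Within P2009, those 4 were 0.09, 0.64, 0.39 and 0.51.

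Over the 32 libraries, the genes whose levels ran closest to each member were taken among 14009 genes of at least 1 CPM, by Pearson's r and as a description. LAMA2, a laminin chain of basement membranes, had r = 0.89 with SLC16A1, FN1, the matrix protein fibronectin, had 0.88, and SULT1E1, an oestrogen sulfotransferase, had 0.87. The closest to SLC16A7 were WDR7, NSF, the ATPase that recycles membrane fusion complexes at synapses, and PLEKHA1, all at 0.88. For SLC16A3 they were EFCAB3, VPS54 and HAUS6 at 0.72, 0.71 and 0.69.

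The enzymes had other neighbours. LAGE3, TPM4 and NHLH2, a neuronal transcription factor, had r = 0.77, 0.76 and 0.75 with BDH1. OXCT1 was closest to GLRX3 at 0.83, ACTR6 at 0.82 and the translation termination factor ETF1 at 0.82. NUP35, a nuclear pore protein, HNRNPF, a splicing factor, and APOA1BP had r = 0.84, 0.82 and 0.81 with ACAT1. All points share the library's depth and composition.

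Markers of other cells moved with the carriers SLC16A1 and SLC16A7, and some also with the enzymes ACAT1 and BDH1. In the list of 10 endothelial markers, 6 correlated positively with SLC16A1 at a median r of 0.51, and 8 correlated negatively with SLC16A7 at a median r of -0.49. Against SLC16A7, 11.8% of all genes passed with a negative and 14.2% with a positive r. Of 6 mural markers, 4 were positive with SLC16A1 (median r = 0.54) and 4 negative with SLC16A7 (median r = -0.54). Of 5 markers of oligodendrocyte precursors, 4 were positive with SLC16A1 (median r = 0.77) and 3 negative with SLC16A7 (median r = -0.59). Most of the 8 mature neuron markers turned the other way. Their median r was -0.67 with SLC16A1, where 6 were negative, and 0.64 with SLC16A7, where 6 were positive. GAD1 was an exception at r = 0.335 with SLC16A1, and the lowest r with SLC16A7 was -0.385, neither passing. The 8 immature neuron markers, DCX among them, were all positive with SLC16A1 (median r = 0.76), 7 were positive with BDH1 (0.58) and 6 with ACAT1 (0.56). With ACAT1, 5 of 8 mature neuron markers were negative and 1 positive (median r = -0.455). Precursor markers were positive with ACAT1 in 3 of 5 cases (0.457). With BDH1, 2 mature neuron markers were negative (-0.263) and 3 precursor markers positive (0.48). A positive r passed for 16.3% of all genes against ACAT1 and 9.73% against BDH1, and the negative shares are not reported here. Across all genes the median r with each member lay between -0.01 and 0.01.

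Of 6 fibroblast markers, listed after the neighbours of SLC16A1 had been seen, 5 were positive with SLC16A1 (median r = 0.61), 4 with ACAT1 (0.50) and 5 with DCX (0.58). For SLC16A3, 1 endothelial marker passed, at a median r of 0.44 over the list, where 0.752% of all genes passed with a positive r, and for OXCT1 the mature neuron list had a median r of 0.00. The astrocyte, oligodendrocyte and microglia lists had median r between -0.40 and 0.12 with the 6 genes, but single markers passed in both directions. With SLC16A1, 2 of 6 microglia markers and 1 of 8 astrocyte markers were positive. In turn 1 microglia marker and 2 of 8 oligodendrocyte markers were negative, where 12.6% of all genes were positive and 12.4% negative. With SLC16A7, 3 of 8 astrocyte markers were negative. Some markers also passed with BDH1, OXCT1 and ACAT1, and none with SLC16A3. The choroid plexus list kept 2 of 5 genes, KCNJ13 and AQP1, as TTR and the rest fell below the filter on low counts. Its median r was -0.44 with BDH1, -0.38 with ACAT1, -0.36 with OXCT1, -0.33 with SLC16A1, 0.01 with SLC16A3 and 0.06 with SLC16A7. Of those 2 genes, 1 passed with a negative r against BDH1 and 1 against ACAT1. The shares of all genes that did so are not reported here, so these counts are not weighed. The blood list kept 1 of 5, HBB, with r between -0.17 and 0.27.

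**Figure D4:**
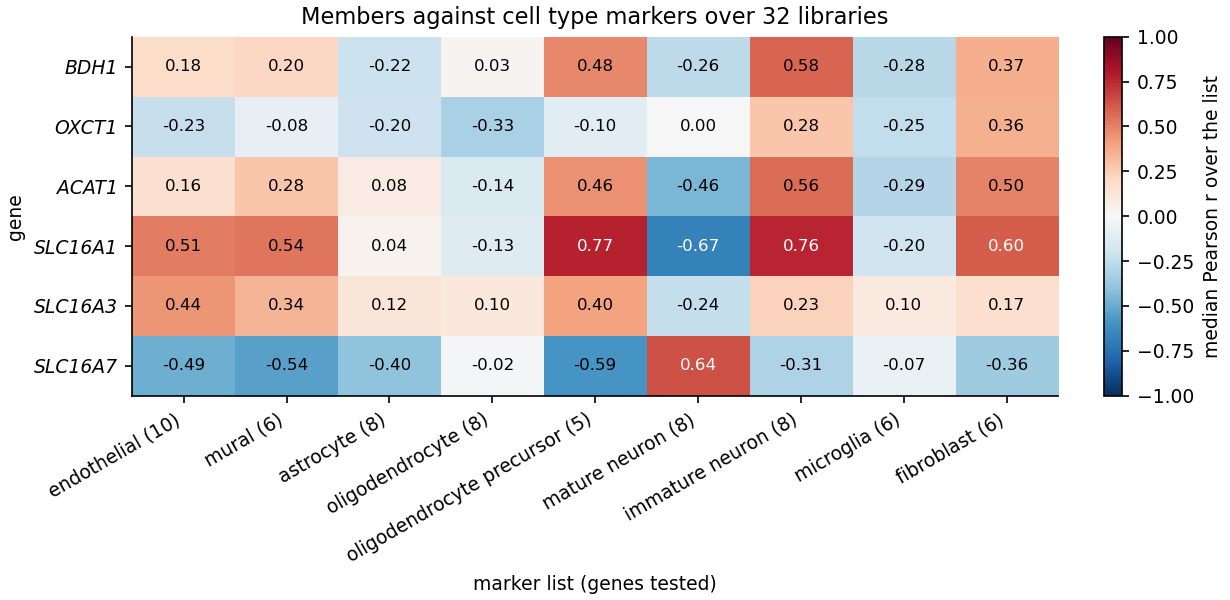
Median Pearson r over 32 libraries between each gene (rows) and the tested genes of each cell type list (columns, with the number of genes), coloured from -1 to 1. SLC16A1 and SLC16A7 carry opposite signs for endothelial (0.51 and -0.49), mural (0.54 and -0.54), precursor (0.77 and -0.59) and mature neuron (-0.67 and 0.64) lists.

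Summed endothelial markers were 338, 381 and 606 CPM at the lowest, median and highest in P2010, and 295, 357 and 512 CPM in P2009, with FLT1 and SLCO1C1 the most abundant. Their highest sum was in P2010 replicate 15, the library with the highest SLC16A1. Summed mural markers were 236, 293 and 332 CPM in P2010 and 199, 245 and 382 CPM in P2009, led by RGS5 and NOTCH3. Summed fibroblast markers were 81.6, 131 and 394 CPM in P2010 and 48.7, 64.9 and 492 CPM in P2009, led by COL3A1 and COL1A2. Summed mature neuron markers were 3749, 5311 and 6238 CPM in P2010 and 3786, 6427 and 7409 CPM in P2009, led by CAMK2A and SYT1. All of these groups overlapped.

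The slope of SLC16A1 on DCX was still called with each of 4 marker scores in the fit. It was smaller with 3 of the 4 scores, 0.38 ± 0.08 with endothelial, 0.37 ± 0.10 with mural and 0.43 ± 0.09 with fibroblast markers as a covariate (edgeR adjusted p = 0.000378, 0.00516 and 0.00168). With oligodendrocyte markers it was 0.63 ± 0.08 (edgeR adjusted p = 8.94e-07). ACAT1 had slopes of 0.09 ± 0.04, 0.11 ± 0.05, 0.04 ± 0.04 and 0.09 ± 0.04 with endothelial, mural, fibroblast and oligodendrocyte markers, none of them called (edgeR adjusted p = 0.115, 0.102, 0.571 and 0.0711). BDH1 was not called with the fibroblast score (0.15 ± 0.05, edgeR adjusted p = 0.0610). The difference of SLC16A1 between P2010 and P2009 was 0.38 ± 0.16 with endothelial, 0.29 ± 0.19 with mural and 0.45 ± 0.20 with fibroblast markers, none of them called (edgeR adjusted p = 0.120, 0.341 and 0.249). For ACAT1 it was 0.23 ± 0.07 with endothelial markers, still called, and 0.27 ± 0.08 with mural and 0.18 ± 0.07 with fibroblast markers, both not called (edgeR adjusted p = 0.0489, 0.0675 and 0.188). For SLC16A7 it was -0.10 ± 0.06, -0.07 ± 0.07 and -0.18 ± 0.08 with those 3 scores, none of them called (edgeR adjusted p = 0.328, 0.575 and 0.215). Scores of oligodendrocyte precursor, mature neuron, astrocyte and microglia markers were not used as covariates. What part any of these cells have in the levels of the 6 genes was not tested.

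Of 8 other listed genes of ketone metabolism, 7 passed the filter. With DCX 1 rose and 1 fell, at a median slope of 0.05, where 13.1% of all genes rose and 13.1% fell. HMGCS1, the cytosolic synthase of the sterol pathway, rose by 0.15 ± 0.05 per SD (edgeR adjusted p = 0.0195), and BDH2, a cytosolic dehydrogenase, fell by 0.10 (-0.10 ± 0.04, edgeR adjusted p = 0.0326). With prefix in the fit, HMGCS1 had 0.10 ± 0.07 and BDH2 -0.11 ± 0.05, and neither was called.

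Of the 11 other SLC16 carriers, 4 rose and 1 fell with DCX, at a median slope of 0.07. Among all genes 13.1% rose and 13.1% fell. SLC16A14 rose by 0.22 ± 0.02 (edgeR adjusted p = 2.1e-08), and with prefix in the fit by 0.19 ± 0.03 (edgeR adjusted p = 0.00033). Its level was 36.3, 48.2 and 71.1 CPM at the lowest, median and highest over all libraries. SLC16A12, a creatine carrier, rose by 0.30 ± 0.06 (edgeR adjusted p = 0.000394) and SLC16A9, a carnitine carrier, by 0.15 ± 0.04 (edgeR adjusted p = 0.00314). SLC16A11, at a mean of 0.977 CPM, fell by 0.33 (-0.33 ± 0.10, edgeR adjusted p = 0.00935). With prefix in the fit these 3 had 0.21 ± 0.09, 0.10 ± 0.05 and -0.17 ± 0.14, and none was called (edgeR adjusted p = 0.161, 0.297 and 0.537). Between P2010 and P2009, SLC16A14 and SLC16A12 were higher in P2010 by 0.28 ± 0.07 and 0.55 ± 0.14, and SLC16A11 was lower at -0.71 ± 0.19 (edgeR adjusted p = 0.00527, 0.00701 and 0.0116).

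The genes of the partner proteins of the carriers fell with DCX. BSG encodes basigin, which carries MCT1 and MCT4 to the cell surface, and EMB encodes embigin, the preferred partner of MCT2. BSG had 58.3, 75.0 and 92.5 CPM at the lowest, median and highest over the 32 libraries and fell by 0.14 per SD of DCX (-0.14 ± 0.02, edgeR adjusted p = 2.34e-05). It was also lower with prefix in the fit (-0.13 ± 0.03, edgeR adjusted p = 0.0129) and lower in P2010 than in P2009 (-0.19 ± 0.06, edgeR adjusted p = 0.0242). EMB had a slope of -0.07 ± 0.03 (edgeR adjusted p = 0.0389) and the sodium-coupled carrier SLC5A8, at a mean of 1.19 CPM, one of -0.47 ± 0.11 (edgeR adjusted p = 0.0016). With prefix in the fit they had -0.09 ± 0.04 and -0.51 ± 0.17, and between P2010 and P2009 they differed by -0.08 ± 0.06 and -0.51 ± 0.25, none of these called (edgeR adjusted p = 0.157 and 0.0548, then 0.388 and 0.168). These were 3 of 3 tested genes of a list of 6, where 13.1% of all genes fell with DCX. SLC5A12 and the lactate receptor HCAR1, both below the filter, stayed at or below 1.14 and 0.856 CPM when scaled by library totals alone. HCAR2 was not analysed here.

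Of 14 genes for glucose entry and for lactate and pyruvate conversion, 1 rose and 3 fell with DCX, at a median slope of 0.01. The shares of all genes were 13.1% rising and 13.1% falling. LDHA, a lactate dehydrogenase subunit, rose by 0.14 ± 0.04 (edgeR adjusted p = 0.00742). The 3 that fell were kinases that switch off pyruvate dehydrogenase: PDK2 at -0.18 ± 0.03, PDK3 at -0.22 ± 0.05 and PDK1 at -0.09 ± 0.03 (edgeR adjusted p = 1.6e-05, 0.00105 and 0.0409). PDK2 was also called with prefix in the fit, at -0.15 ± 0.04 (edgeR adjusted p = 0.0177), while PDK3 at -0.08 ± 0.07 and PDK1 at -0.11 ± 0.05 were not (edgeR adjusted p = 0.501 and 0.182). The fourth such kinase, PDK4, named after its value was seen, had a slope of 0.15 ± 0.08 and was not called (edgeR adjusted p = 0.160).

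Of 13 genes of fatty acid oxidation, 2 rose and 2 fell, at a median slope of 0.01. Both counts were near the shares of all genes, 13.1% rising and 13.1% falling. CPT1A, which admits long-chain fatty acids to mitochondria, rose by 0.17 ± 0.04 and the long-chain dehydrogenase ACADL by 0.16 ± 0.03 (edgeR adjusted p = 0.000609 and 0.000428). The medium-chain dehydrogenase ACADM had -0.10 ± 0.02 and ACADSB, for short branched chains, -0.08 ± 0.03 (edgeR adjusted p = 0.00095 and 0.0195). With prefix in the fit, CPT1A had 0.26 ± 0.05, ACADL 0.17 ± 0.05 and ACADM -0.13 ± 0.03, all called (edgeR adjusted p = 0.000746, 0.0196 and 0.01). In that fit 3.77% of all genes were called higher and 4.12% lower.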

How the data were processed

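Hippocampal RNA of 32 vervet monkeys was sequenced. The authors deposited raw counts of reads per gene. The submitters' processing notes name STAR and HTSeq. The version of each, the genome build, the annotation and the strand setting were not given in the sources used here. Of the 6 genes, BDH1 overlaps another annotated gene, a pseudogene, in the reference gene table of mChlSab1.0.hap1, so its count may be uncertain. Rows for reads outside genes, 5 in all, were left out of library sizes. Reads in no gene feature made up 51.3% to 67.1% of reads counted. Each pair of libraries differed by more than counting noise (chi-square per degree of freedom at least 4.30).

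Libraries were scaled by TMM in edgeR 4.0.16 (R 4.3.3). Genes were kept by filterByExpr (minimum count 10, total 15, proportion 0.7), leaving 19959. A count of 0 allows up to 3 counts, or 0.153 to 0.321 CPM, for counting error only. Slopes on z-scored log2 CPM of DCX (prior count 2), their difference between prefixes, and P2010 minus P2009 had p-values from the quasi-likelihood test of edgeR, adjusted after Benjamini and Hochberg, with a threshold of 0.05. Correlations used two-sided permutation tests with 100000 resamples. Of 134 list genes, 126 matched by symbol and 4 by gene number. Named genes were all 6 members, the 3 closest genes to each by r, up to 4 genes per pathway list by smallest p, and up to 2 markers a list by level. The 6 genes and the lists were chosen with earlier results of these data known. On simulated counts over 19959 genes the fit on DCX called 74% of genes given a slope of 0.25 and 94% of those given 0.5, and the comparison of P2010 with P2009 called 69% of those given a difference of 0.5. Within prefixes the fit called 42% at 0.25 and 83% at 0.5, and the difference in slope was called in 28% at 0.5 and 72% at 1. Among the genes called on simulated counts, 3.4% were false for the fit on DCX and 6.7% within prefixes. False calls made up 7.8% between P2010 and P2009 and 8.3% for the difference in slope. Simulated counts were drawn independently for each gene, with 100 genes changed at each size. Real libraries share composition across genes, so these rates need not hold for them. Alternatives were other scalings, filters, DESeq2 1.42.0, limma-trend (limma 3.58.1), covariates and left-out libraries. Figures were drawn with matplotlib 3.10.9. Values of some listed genes are not reported here.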

Additional observations from a re-analysis of the deposited data

How the results depend on the processing

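The slope of SLC16A1 on DCX kept its call under all 14 alternatives (0.37 to 0.63) and all 32 left-out libraries (0.49 to 0.60). With prefix in the fit it did so under all 12 (0.32 to 0.61). No alternative held a score of oligodendrocyte precursor or mature neuron markers as a covariate. With fibroblast markers as a covariate, 2205 genes and 1 member followed DCX. Within prefixes, 2774 genes and 2 members were called with the share of reads in no feature as a covariate, 2425 genes without the 3 libraries that stood apart, and 2 members with the mural covariate. The second was BDH1, at 0.20 each time. Leaving out 1 library gave 912 genes (without P2010 replicate 16) to 2125 (without P2009 replicate 1).

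Between P2010 and P2009, 1335 genes and 1 member were called with the endothelial covariate, 165 and 0 with the mural, 205 and 0 with the fibroblast, and 1161 and 0 with low title numbers. With DCX as a covariate edgeR called 0 genes and 0 members, while 2203 genes had an unadjusted p under 0.05. For a difference in DCX slope DESeq2 called 2 genes and limma-trend 0, where 817 had an unadjusted p under 0.05.

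Some values that were not called changed sign, and the cause was not tested. On DCX, SLC16A3 had -0.0064 and -0.013 and SLC16A7 0.0065 and 0.048 with endothelial and mural covariates, and OXCT1 -0.0037 and -0.030 with oligodendrocyte and fibroblast ones. Within prefixes the oligodendrocyte covariate gave -0.013 for OXCT1, -0.0076 for ACAT1 and -0.016 for SLC16A7, the fibroblast one -0.016 for OXCT1 and -0.018 for ACAT1. ACAT1 had -0.0067 without the 2 libraries highest in SLC16A1, and SLC16A7 -0.032 without the 3 that stood apart. Left-out libraries gave -0.0051 to 0.030 for OXCT1, -0.017 to 0.026 for ACAT1 and -0.019 to 0.033 for SLC16A7. Between prefixes, OXCT1 had 0.037 and 0.040 and SLC16A3 -0.093 and -0.13 with endothelial and mural covariates, SLC16A3 -0.10 and BDH1 -0.024 with DCX, and OXCT1 -0.039 to 0.013 over left-out libraries. With no filter, the difference in slope was -0.029 for OXCT1 and -0.00061 for ACAT1.

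No paired analysis was possible because replicate numbers only follow the order of deposition. The mural and fibroblast covariates, the alternatives without 2 or 3 named libraries, and those for the difference in slope and for pairs of members were added after the data were seen.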
